A study of Mus musculus with 4 samples.

Results

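The genes described here build and regulate the DNA replication machinery, measured in haematopoietic stem cell preparations from mice lacking Fancd2, Foxo3a or both. The set was a list of 43 genes chosen by name, covering origin licensing, the replicative helicase, the polymerases, lagging-strand processing, nucleotide supply and the G1/S transition. Of these, 41 had a probe set that names 1 gene, out of 22180 genes with such a probe set on the array. Where a gene had several, the brightest by the mean of the arrays was used. The other 2, Rfc4 and Ccne2, were covered only by probe sets that also name a neighbouring gene, Eif4a2 for Rfc4 and Ints8 for Ccne2. Those 2 members are left out of every count of signals, and Rfc4 enters only the promoter counts.

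RNA came from bone marrow cells of mice aged 2 months, in 4 genotypes: Fancd2KO, Foxo3aKO, the double knockout of both (DKO) and WT. Each genotype was measured on 1 Affymetrix Mouse Gene 2.0 ST array, and all 4 had the same sort, for cells without lineage markers and CD34 that carry c-Kit and Sca-1. The labels call the cells SLAM cells, but neither CD150 nor CD48 is part of the stated gate. The knockout alleles, the strain, the sex and the number of mice per array are not given in the sources used here. With 1 array per genotype there is no replicate error, so every difference below compares a pair of arrays, and no p-value or standard error is given. In RNA from sorted populations, fewer cells of a type and less RNA per cell cannot be told apart.

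Before S phase, the origin recognition complex and Cdc6 mark replication origins, and Cdt1 brings the MCM2-7 helicase to them, a step that geminin blocks once S phase has begun. The Cdc7 kinase with its partner Dbf4, together with cyclin-dependent kinases, then lets Cdc45 and the GINS complex join MCM2-7 and form the active CMG helicase. Primase starts each new strand, PCNA holds the polymerases on the template, and flap removal and ligation join the lagging-strand pieces. Transcription of many of these genes is driven by E2F factors as cells leave G1, while long-term stem cells of the marrow are known for spending most of their time in quiescence. Fancd2 protects stalled replication forks and acts in interstrand crosslink repair, and Foxo3a is a transcription factor known for holding stem cells in quiescence.

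The arrays shared nearly one distribution, with medians of 5.28 in Fancd2KO, 5.35 in Foxo3aKO and 5.32 in DKO, against 5.29 in WT, on the log2 scale of the deposited signals. Fancd2 signal was 6.08 in Fancd2KO and 5.84 in DKO cells, against 6.67 in Foxo3aKO and 6.56 in WT cells, so both arrays labelled as lacking it were the lower ones. Foxo3, which encodes Foxo3a, read 6.72 in Fancd2KO, 6.64 in Foxo3aKO and 6.51 in DKO cells, against 6.62 in WT cells, and did not separate the arrays labelled as lacking it. The positions of the deleted parts relative to the probes are not given in the sources used here, so the Foxo3 signal checks nothing about that label. All 14 measured stem cell markers were above the detection floor on every array, with Kit at 10.41 in Fancd2KO, 10.57 in Foxo3aKO and 10.43 in DKO, against 10.67 in WT. Cd34, the antigen that the gate selects against, also gave strong signal, at 10.28 in Fancd2KO, 9.67 in Foxo3aKO and 10.36 in DKO, against 10.79 in WT. Neutrophil markers had medians of 11.13 in Fancd2KO, 11.83 in Foxo3aKO and 11.03 in DKO, against 11.38 in WT, all 15 of them above the floor on every array, although the sorted cells were labelled lineage-negative.

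Several of these genes share E2F-type words close to the transcription start, a feature of sequence that did not enter the choice of members. The words searched were TTTCCCGC, TTTGGCGC, TTTCGCGC and TTTGCCGC, on both strands, in the 300 bases from 250 before to 50 after the start in the RefSeq promoters of build GRCm38.p6. Of the 35 members with a promoter in that table, 13 held at least 1 of them (37.1%), as did 435 of 9504 genes above the floor (4.58%) and 744 of all 32851 promoters (2.26%). The 13 were Orc1, Orc3, Cdc6, Cdt1, Mcm3, Mcm5, Mcm6, Mcm7, Gins3, Rfc3, Pola1, Pold1 and Lig1. The CCAAT box, also read on both strands, was in 20 of the 35 (57.1%), against 42.2% of genes above the floor and 37.4% of all promoters. A match is a run of letters in this window, not evidence that a factor binds there.

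The 8 stretches below each cover the 180 bases just before the start, written 5′ to 3′ on the gene's strand, with E2F words and CCAAT boxes in capitals. Orc1 and Rpa2 are shown as the members at least 1.5-fold higher in Fancd2KO than in WT cells, Rfc3 and Prim1 as those at least 1.5-fold lower in DKO than in Fancd2KO cells, Mcm5, Mcm6 and Mcm7 as helicase genes whose arrays fell in different orders, and Cdc6 because its signal hardly differed between arrays. They lie at chr4:108579274-108579453 (Orc1, plus strand), chr4:132768180-132768359 (Rpa2, plus), chr5:151651209-151651388 (Rfc3, minus), chr10:128015035-128015214 (Prim1, plus), chr8:75109329-75109508 (Mcm5, plus), chr1:128359706-128359885 (Mcm6, minus), chr5:138171884-138172063 (Mcm7, minus) and chr11:98907971-98908150 (Cdc6, plus).
Orc1: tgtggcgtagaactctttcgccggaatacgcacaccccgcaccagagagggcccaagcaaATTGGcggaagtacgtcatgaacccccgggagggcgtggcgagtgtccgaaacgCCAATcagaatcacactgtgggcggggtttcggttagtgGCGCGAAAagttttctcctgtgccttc
Rpa2: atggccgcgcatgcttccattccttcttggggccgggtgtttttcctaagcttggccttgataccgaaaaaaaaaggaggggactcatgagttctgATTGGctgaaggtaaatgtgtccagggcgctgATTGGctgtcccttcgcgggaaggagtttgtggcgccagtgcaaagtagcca
Rfc3: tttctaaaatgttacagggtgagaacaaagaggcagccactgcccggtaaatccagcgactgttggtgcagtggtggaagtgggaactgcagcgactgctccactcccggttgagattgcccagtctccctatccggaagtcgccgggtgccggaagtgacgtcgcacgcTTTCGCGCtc
Prim1: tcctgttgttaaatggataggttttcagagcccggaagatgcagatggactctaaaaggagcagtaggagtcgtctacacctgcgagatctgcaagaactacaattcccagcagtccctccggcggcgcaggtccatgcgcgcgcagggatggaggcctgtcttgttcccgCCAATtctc
Mcm5: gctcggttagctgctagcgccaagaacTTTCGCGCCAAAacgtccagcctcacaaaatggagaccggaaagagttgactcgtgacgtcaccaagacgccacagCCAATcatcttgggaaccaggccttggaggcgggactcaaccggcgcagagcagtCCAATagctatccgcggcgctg
Mcm6: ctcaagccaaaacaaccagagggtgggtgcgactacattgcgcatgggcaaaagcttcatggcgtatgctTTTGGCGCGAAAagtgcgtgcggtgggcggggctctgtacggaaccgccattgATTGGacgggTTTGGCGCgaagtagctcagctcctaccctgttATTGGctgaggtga
Mcm7: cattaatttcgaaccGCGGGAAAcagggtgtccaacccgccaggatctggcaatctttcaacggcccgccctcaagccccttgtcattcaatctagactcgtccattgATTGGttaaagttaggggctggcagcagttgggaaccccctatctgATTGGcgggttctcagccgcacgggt
Cdc6: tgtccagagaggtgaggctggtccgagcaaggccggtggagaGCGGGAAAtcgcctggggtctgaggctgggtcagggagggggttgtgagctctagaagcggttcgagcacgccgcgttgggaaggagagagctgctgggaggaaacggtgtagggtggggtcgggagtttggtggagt
In Mcm5 and in the upstream site of Mcm6, words on opposite strands overlap, which gives the longer runs in capitals. Rpa2 and Prim1 hold CCAAT boxes and none of the 4 E2F words in the whole window. Orc1 and Cdc6, which lie near opposite ends of the list in how much their signals varied, each hold 1 E2F word in the stretch shown.

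The replication genes were among the steadier genes on these arrays. The range of a gene, its highest minus its lowest value over the 4 arrays, had a median of 0.31 log2 among the 41 members and 0.46 among the 12041 genes above the floor. The floor was 5.51 log2, the median of all gene values, and a gene counted as above it when its highest array reached it. All 41 members were above it on all 4 arrays, with values between 5.62 and 11.09. A range of at least 1.5-fold, 0.58 log2, was found for 7 members (17.1%) and 33.2% of all genes above the floor. The members were also brighter, with a median mean level of 7.96 against 7.10, and bright genes vary less here. Among the 3344 genes at least as bright as the members' median, the median range was 0.39, and 23.4% reached 1.5-fold.

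**Figure D1:**
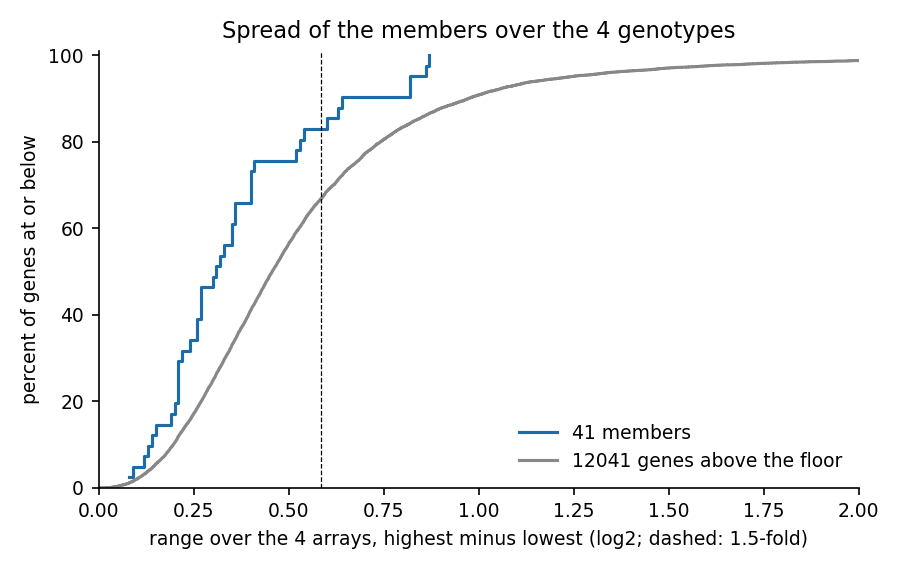
The plot shows the range over the 4 arrays (x axis, log2, highest minus lowest value) against the percent of genes at or below it (y axis), for the 41 members and for the 12041 genes above the floor; the dashed line marks 1.5-fold. The line of the members lies to the left, with a median of 0.31 against 0.46.

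No member reached a 2-fold difference in any comparison. Of all genes above the floor, 1.68% were at least 2-fold higher and 1.35% lower in Fancd2KO than in WT cells, 1.81% and 1.3% in Foxo3aKO, and 1.37% and 1.72% in DKO cells. The shares were 1.5% higher and 1.51% lower for DKO against Fancd2KO, 1.18% and 2.18% for DKO against Foxo3aKO, and 3.99% and 4.43% for DKO against the sum of the single knockout differences. For technical scale, 544 genes with 2 probe sets showed how far independent probes disagree about the same difference. Against WT, the SD of that disagreement was 0.46 log2 in Fancd2KO, 0.45 in Foxo3aKO and 0.48 in DKO cells, and 95% of the disagreements were within 0.91, 0.91 and 0.94. The largest differences of any member from WT were 0.82, 0.66 and 0.59 in size, so all of them lay inside that 95% range. The members' differences are therefore described as single-array values, and a difference shown by one gene alone is within what 2 probe sets of one gene can show. The signals of 3 members were near the level of background probes rich in G and C. Those 8 probe sets had medians of 6.32 in Fancd2KO, 5.88 in Foxo3aKO and 6.49 in DKO, against 6.41 in WT, and 38 of the 41 members were above 6.49 on all arrays. The exceptions were Fen1, Orc1 and E2f1.

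**Figure D2:**
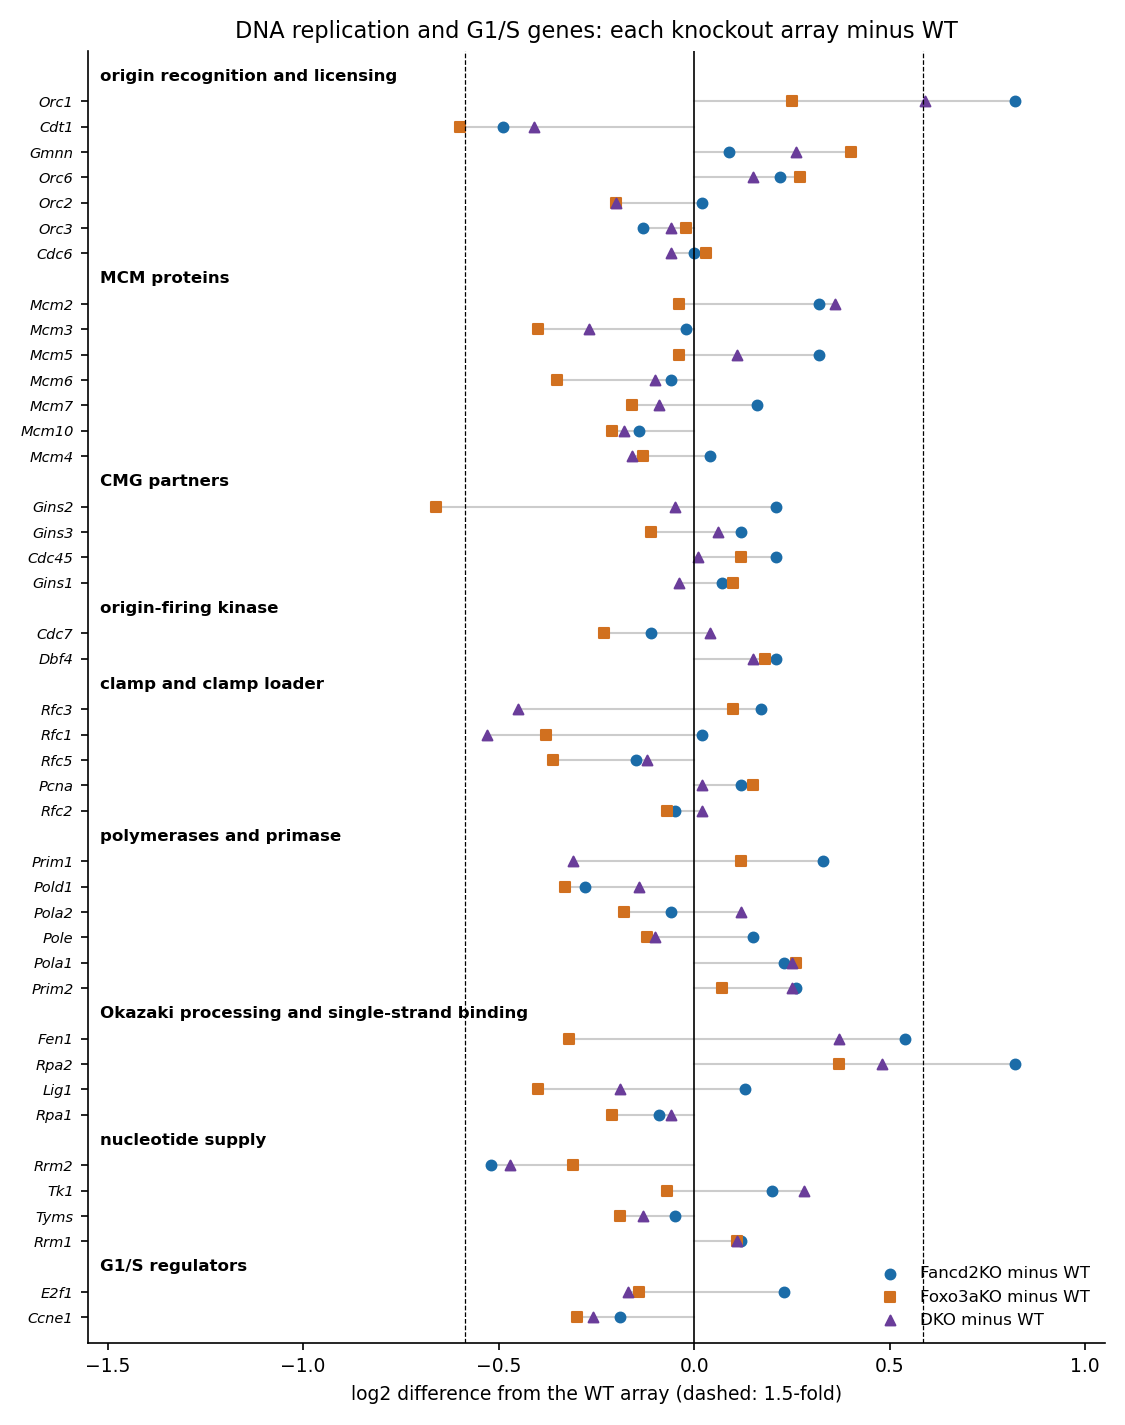
Each row is 1 of the 41 members, grouped by role, and the x axis is the log2 difference of the Fancd2KO (circles), Foxo3aKO (squares) and DKO (triangles) arrays from the WT array; dashed lines mark 1.5-fold. The Foxo3aKO squares of the 7 MCM genes all lie to the left of 0, and only Orc1, Rpa2, Cdt1 and Gins2 reach a dashed line.

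Among the origin licensing genes, the initiator Orc1 was higher in every knockout and the MCM loader Cdt1 was lower in every knockout. Orc1, the largest subunit of the origin recognition complex, read 6.97 in Fancd2KO, 6.40 in Foxo3aKO and 6.74 in DKO cells, against 6.15 in WT cells. Its linear signal was 1.77-fold that of WT in Fancd2KO, 1.19-fold in Foxo3aKO and 1.5-fold in DKO cells. Cdt1 read 7.54 in Fancd2KO, 7.44 in Foxo3aKO and 7.62 in DKO cells, against 8.03 in WT cells. That is 0.711, 0.661 and 0.751 times the WT signal, with the 3 knockout arrays within 0.18 log2 of each other. Gmnn, which encodes geminin, the inhibitor of Cdt1, was on the other side of WT, at 8.02 in Fancd2KO, 8.33 in Foxo3aKO and 8.19 in DKO cells, against 7.93 in WT cells.

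The remaining licensing genes varied less. Orc6, a small subunit of the origin recognition complex, was 0.22, 0.27 and 0.15 log2 above WT in Fancd2KO, Foxo3aKO and DKO cells. Orc2, another subunit, was 0.02 above WT in Fancd2KO and 0.20 below it in both Foxo3aKO and DKO cells. Orc3 was among the 4 steadiest members, at 8.84 in Fancd2KO, 8.95 in Foxo3aKO and 8.90 in DKO cells, against 8.97 in WT cells. Cdc6, the ATPase that joins the origin recognition complex before MCM loading, was steadier still, at 7.14 in Fancd2KO, 7.16 in Foxo3aKO and 7.07 in DKO cells, against 7.13 in WT cells. The licensing genes thus showed no common direction against WT. Above it were 5, 4 and 3 of the 7 in Fancd2KO, Foxo3aKO and DKO cells, against 48.1%, 44.6% and 46.5% of all genes.

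All 7 MCM genes were lower in Foxo3aKO than in WT cells, by small amounts. The median difference was -0.16 log2, and the sizes ran from Mcm3 at -0.40 and Mcm6 at -0.35 to Mcm2 and Mcm5 at -0.04 each. In Fancd2KO cells 4 of the 7 were above WT, and all 7 were above Foxo3aKO, with a median of 0.32. Both of these 7-of-7 counts also held after quantile normalisation, after cyclic loess and after centring the arrays. Both rest on the Foxo3aKO array and so share its error, which rescaling the same arrays does not remove. Across all genes above the floor, 55.4% were lower in Foxo3aKO than in WT cells and 56.2% were higher in Fancd2KO than in Foxo3aKO cells.

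Mcm2, a helicase subunit, was the MCM gene with the largest range, at 8.39 in Fancd2KO, 8.03 in Foxo3aKO and 8.43 in DKO cells, against 8.07 in WT cells. Both arrays lacking Fancd2 lay above both arrays that carry it. Mcm5, also a subunit, had the same order of groups, at 8.61 in Fancd2KO and 8.40 in DKO, against 8.25 in Foxo3aKO and 8.29 in WT. Mcm3, Mcm4, Mcm6, Mcm7 and Mcm10 were split the other way: both arrays lacking Foxo3a lay below both arrays that carry it. Mcm6, for example, read 9.59 in Foxo3aKO and 9.83 in DKO, against 9.87 in Fancd2KO and 9.93 in WT. Mcm10, which is not a subunit of the helicase ring but helps to activate it, read 6.71 in Foxo3aKO and 6.74 in DKO, against 6.77 in Fancd2KO and 6.92 in WT. Such gaps can be small: for Mcm6 the DKO array was only 0.04 log2 below Fancd2KO. Of all genes above the floor, 16.3% had both arrays lacking Fancd2 above the others, and 21.2% had both arrays lacking Foxo3a below the others. The promoters of Mcm5, Mcm6 and Mcm7 printed above all hold E2F words, while the arrays were ordered by Fancd2 status for Mcm5 and by Foxo3a status for the other pair.

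The partners that turn the MCM ring into the CMG helicase were led by Gins2, a subunit of the GINS complex. Gins2 read 8.85 in Fancd2KO, 7.99 in Foxo3aKO and 8.59 in DKO cells, against 8.64 in WT cells. The Foxo3aKO array was the low one, at 0.634 times WT, and the DKO array was 1.52-fold above it. Gins1, Gins3 and Cdc45, the remaining partners, had no difference from WT above 0.21 log2 in size. All 4 partners were above WT in Fancd2KO cells, with differences between 0.07 and 0.21, and all 4 were lower in DKO than in Fancd2KO cells, by 0.06 to 0.26 log2. These 2 counts were the same after each of the other normalisations, but both rest on the Fancd2KO array and so share its error. Of all genes above the floor, 48.1% were higher in Fancd2KO than in WT cells and 52.5% were lower in DKO than in Fancd2KO cells.

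The kinase that fires origins varied little. Cdc7, its catalytic subunit, read 7.08 in Fancd2KO, 6.96 in Foxo3aKO and 7.23 in DKO cells, against 7.19 in WT cells. Dbf4, the subunit that activates it, was above WT by 0.21 in Fancd2KO, 0.18 in Foxo3aKO and 0.15 in DKO cells.

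In the clamp and clamp loader group, 2 of the 5 measured genes, Rfc3 and Rfc1, were lowest in DKO cells. DKO was the lowest array for 25.1% of all genes above the floor. Rfc3 read 7.71 in Fancd2KO, 7.64 in Foxo3aKO and 7.09 in DKO cells, against 7.54 in WT cells. The single knockouts and WT were close together, and DKO was 0.45 log2 below WT and 0.647 times Fancd2KO. Rfc1, the large subunit of the loader, was low in both arrays lacking Foxo3a, at 8.24 in Foxo3aKO and 8.09 in DKO, against 8.64 in Fancd2KO and 8.62 in WT. Rfc5 was below WT by 0.15 in Fancd2KO, 0.36 in Foxo3aKO and 0.12 in DKO cells. Rfc2 had the smallest range of any member, 0.08, with 8.25 in Fancd2KO, 8.24 in Foxo3aKO and 8.32 in DKO, against 8.30 in WT. Pcna, the sliding clamp, was also steady, at 11.05 in Fancd2KO, 11.09 in Foxo3aKO and 10.95 in DKO cells, against 10.93 in WT cells. The loader subunits with their own probe set thus did not all share a pattern: Rfc2 differed by under 0.1 log2 between any pair of arrays where Rfc1 and Rfc3 differed by over 0.5. The probe set that Rfc4 shares with Eif4a2 had the order of Rfc3. It was 0.28, 0.12 and -0.31 from WT in Fancd2KO, Foxo3aKO and DKO, where Rfc3 was 0.17, 0.10 and -0.45. All these differences are within what 2 probe sets of one gene can show.

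Among polymerase and primase genes, Prim1, the catalytic primase subunit, had the largest range. It read 8.39 in Fancd2KO, 8.18 in Foxo3aKO and 7.75 in DKO cells, against 8.06 in WT cells. Both single knockouts were above WT and DKO was below it, at 0.641 times the Fancd2KO signal. Prim2, the partner subunit of primase, did not share that order and was 0.26, 0.07 and 0.25 log2 above WT in Fancd2KO, Foxo3aKO and DKO cells. Pola1, the catalytic subunit of the polymerase that works with primase, was above WT in all knockouts, by 0.23, 0.26 and 0.25 in the same order. Pold1, the catalytic subunit of the main lagging-strand polymerase, was below WT in all of them, by 0.28, 0.33 and 0.14. Pola2 and Pole, an accessory and a leading-strand polymerase subunit, stayed within 0.18 log2 of WT. A second, dimmer probe set of Pole read 4.70 in DKO against 5.50 in WT, a difference of -0.80 that the brighter probe set, at -0.10, did not show.

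Lagging-strand processing and single-strand binding held 2 of the members with the largest differences. Fen1, the flap endonuclease, read 6.48 in Fancd2KO and 6.31 in DKO, against 5.62 in Foxo3aKO and 5.94 in WT. Both arrays lacking Fancd2 were above both that carry it, and DKO was 1.62-fold above Foxo3aKO. Fen1 was also the dimmest member, near the background of probes rich in G and C, and its second probe set, at 4.56 in Fancd2KO, 4.66 in Foxo3aKO and 4.54 in DKO, against 4.44 in WT, did not show that order. Rpa2, a subunit of the single-strand binding complex RPA, read 8.13 in Fancd2KO, 7.68 in Foxo3aKO and 7.79 in DKO cells, against 7.31 in WT cells. WT was the low array, and the knockouts were 1.77-fold, 1.29-fold and 1.40-fold above it. Rpa1, the large subunit of the same complex, was instead below WT, by 0.09, 0.21 and 0.06. The second probe set of Rpa1 had the other sign, at 0.27, 0.16 and 0.28 above WT in Fancd2KO, Foxo3aKO and DKO cells, so its direction is not settled by these probes. Lig1, the ligase that seals lagging-strand nicks, was low in both arrays lacking Foxo3a, at 8.71 in Foxo3aKO and 8.93 in DKO, against 9.24 in Fancd2KO and 9.11 in WT.

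**Figure D3:**
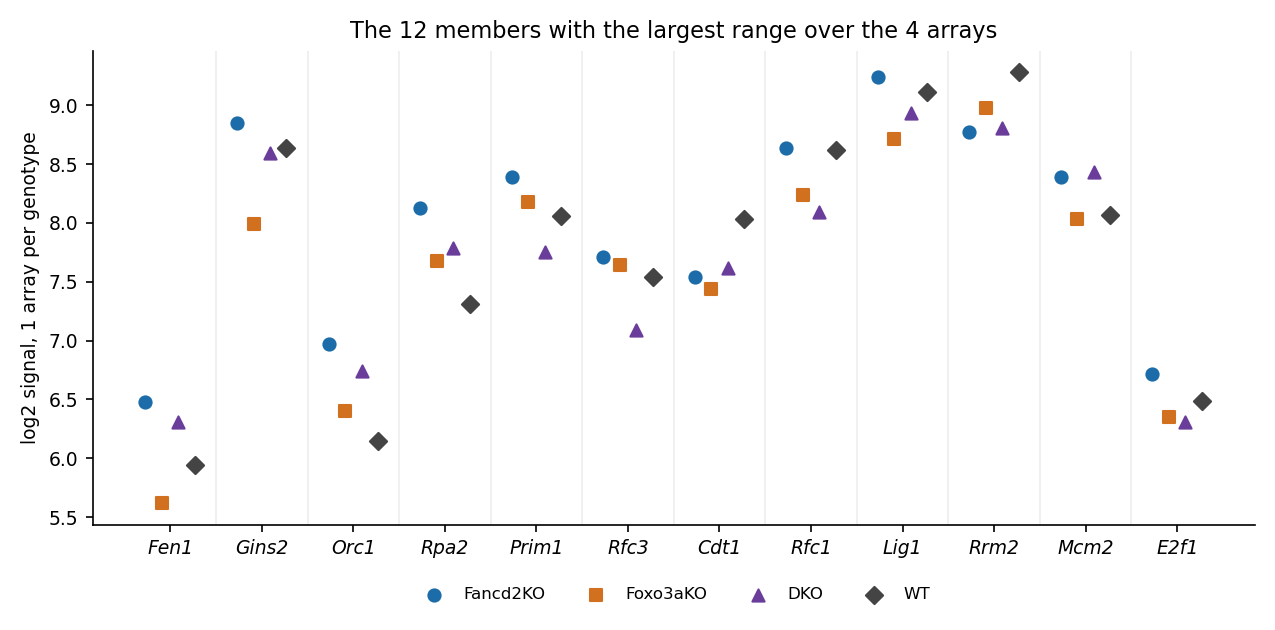
The 12 members with the largest range are shown with their log2 signal (y axis) on the Fancd2KO, Foxo3aKO, DKO and WT array, 1 point per array; heights compare arrays within a gene, not genes with each other. WT is the lowest array for Orc1 and Rpa2 and the highest for Cdt1 and Rrm2, Foxo3aKO is the lowest for Fen1, Gins2 and Lig1, and DKO is the lowest for Prim1, Rfc3 and Rfc1.

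Of the genes that supply nucleotides, Rrm2, the regulated small subunit of ribonucleotide reductase, was highest in WT. It read 8.77 in Fancd2KO, 8.98 in Foxo3aKO and 8.81 in DKO cells, against 9.28 in WT cells. A second probe set of Rrm2 gave -0.22, 0.21 and 0.07 against WT, so only the Fancd2KO difference had the same sign on both. Rrm1, the large subunit of the enzyme, was level at 9.59 in all 3 knockouts, against 9.48 in WT. Tyms, which makes thymidylate, was below WT by 0.05, 0.19 and 0.13, and Tk1, the thymidine kinase of S phase, differed by 0.20, -0.07 and 0.28, in Fancd2KO, Foxo3aKO and DKO cells.

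The G1/S regulators with their own probe set were E2f1 and Ccne1. E2f1, an activating E2F factor, read 6.72 in Fancd2KO, 6.35 in Foxo3aKO and 6.31 in DKO cells, against 6.49 in WT cells, all near the background of probes rich in G and C. Ccne1, which encodes cyclin E1, was below WT by 0.19, 0.30 and 0.26. Both genes were lower on the 2 arrays lacking Foxo3a than on the 2 that carry it. The share of all genes above the floor with that order was 21.2%. For Ccne1 the gap was small, with DKO at 6.75 and Fancd2KO at 6.82. The probe sets shared with a neighbour read 7.45 in Fancd2KO, 7.29 in Foxo3aKO and 6.86 in DKO, against 7.17 in WT for Rfc4 with Eif4a2, and 7.81, 8.14 and 7.71, against 7.88 for Ccne2 with Ints8.

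In Fancd2KO cells against WT, 27 of the 41 members were higher and 14 were lower, where 48.1% of all genes above the floor were higher and 51.9% were lower. The median difference was 0.12 log2 for the members and -0.01 for all genes. Orc1 and Rpa2 were at least 1.5-fold higher, 2 of 41 against 5.51% of all genes, and 0 members were at least 1.5-fold lower, against 6.29%. In Foxo3aKO cells the counts ran the other way, with 14 members higher and 27 lower than WT, against 44.6% and 55.4% of all genes. The median was -0.12 for the members and -0.04 for all genes. Cdt1 and Gins2 were at least 1.5-fold lower, 2 of 41 (1 after quantile normalisation or cyclic loess) against 7.62%, and 0 were at least 1.5-fold higher, against 5.85%. In DKO cells 18 members were higher and 23 were lower than WT, against 46.5% and 53.4% of all genes, with medians of -0.06 for the members (0.01 after cyclic loess) and -0.03 for all genes. Only Orc1 reached 1.5-fold in DKO, and 0 did after centring the arrays, against 5.05% of genes at least 1.5-fold higher and 6.3% lower. These 3 comparisons share the WT array and so share its error. In each of these comparisons the share of members past 1.5-fold was below that of all genes. In Fancd2KO the gap was small for genes at least 1.5-fold higher, 4.88% of members against 5.51% of all genes. The members were also brighter, and bright genes vary less here, so these counts do not show whether the members stand apart.

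Set against the single knockouts, DKO cells were lower than Fancd2KO cells for 28 of the 41 members and higher for 13, against 52.5% and 47.4% of all genes. The members at least 1.5-fold lower were Rfc3 and Prim1, 2 of 41 against 6.1%, and 0 were as much higher, against 5.33%. Against Foxo3aKO cells, DKO cells were higher for 25 members and lower for 16, where 54.0% and 46.0% of all genes were. Gins2 and Fen1 were at least 1.5-fold higher in DKO, 2 of 41 against 5.83%, and 0 were as much lower, against 6.52%. For these 2 comparisons the medians of the members were -0.07 and 0.06, and those of all genes -0.02 and 0.03.

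A count that uses each array once describes the same pattern without a chosen baseline. The Fancd2KO array gave the highest value of the 4 for 19 members (46.3%), against 26.4% of all genes above the floor, and the lowest for 2 (4.88%), against 22.1%. The Foxo3aKO array gave the lowest value for 21 members (51.2%), against 31.3%, and the highest for 6 (14.6%), against 21.6%. DKO was highest for 5 members and lowest for 8, against 24.4% and 25.1% of all genes, and WT was highest for 11 and lowest for 10, against 27.6% and 21.5%. Set directly against each other, Fancd2KO was above Foxo3aKO for 33 of the 41 members and below it for 8, against 56.2% and 43.7% of all genes, with medians of 0.13 and 0.05. Under the other normalisations, floors and probe set rules, Fancd2KO was highest for 17 to 24 members and Foxo3aKO lowest for 20 to 23. The direct comparison was added after the other values were seen. Its largest differences were those of Fen1 at 0.87, Gins2 at 0.86, Orc1 at 0.57, Lig1 at 0.53 and Rpa2 at 0.45, and the first 2 were the members past 1.5-fold, against 5.61% of all genes.

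**Figure D4:**
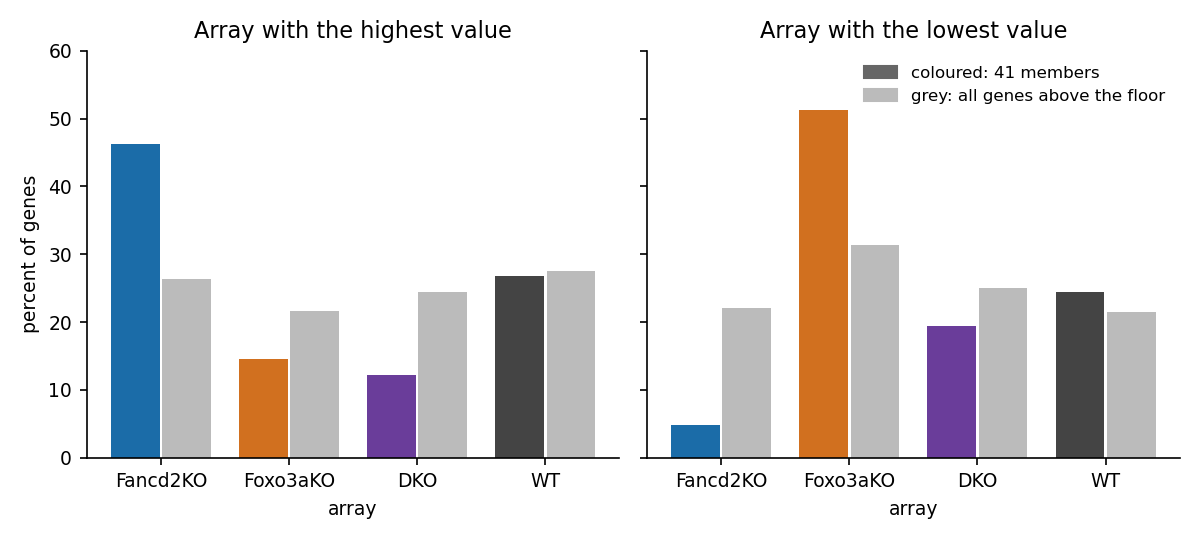
Bars give the percent of genes (y axis) whose highest value (left) or lowest value (right) was on the Fancd2KO, Foxo3aKO, DKO or WT array, in colour for the 41 members and in grey for all genes above the floor. Fancd2KO holds the highest value for 46.3% of the members and Foxo3aKO the lowest for 51.2%, against 26.4% and 31.3% of all genes.

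Other features of the arrays differed in the same comparison. The 8 G- and C-rich sets used above to gauge background had their lowest median in Foxo3aKO. It was 5.88 there, against 6.32 in Fancd2KO, 6.49 in DKO and 6.41 in WT. The median of the whole array went the other way, at 5.35 in Foxo3aKO and 5.28 in Fancd2KO. Whether the lower background has a part in the low Foxo3aKO values of the members was not tested. For Fancd2KO minus Foxo3aKO, the 15 neutrophil markers had a median of -0.68 and the 13 measured monocyte and macrophage markers a median of -0.92, with none of those 13 above 0. The 14 stem cell markers had a median of 0.27, and the 8 progenitor markers a median of 0.04. The 11 mast cell and eosinophil markers had a median of -0.90 and the 10 T and NK cell markers a median of -0.55. Medians of marker lists take in every measured gene, also those below the floor. Above it were 8 of these 11 and 6 of these 10. Against WT, progenitor markers had medians of -0.61 in Fancd2KO, -0.71 in Foxo3aKO and -0.87 in DKO cells and 8, 7 and 6 of the 8 below WT. Over the 7 progenitor markers above the floor the medians were -0.66, -0.75 and -1.3. Flt3, a receptor of early multipotent progenitors, read 7.34 in Fancd2KO, 7.37 in Foxo3aKO and 6.67 in DKO, against 8.97 in WT, and Dntt, an enzyme of early lymphoid cells, 7.44, 6.57 and 5.62, against 8.74 in WT. Mast cell and eosinophil markers had medians against WT of -0.94 in Fancd2KO, -0.15 in Foxo3aKO and -1.36 in DKO cells, and erythroid markers -0.58, -0.49 and -0.16. For the 8 mast cell and eosinophil markers above the floor the medians were -1.05, -0.07 and -1.62. Monocyte and macrophage markers had median levels of 6.56 in Fancd2KO, 7.95 in Foxo3aKO and 8.78 in DKO, against 6.85 in WT, so the DKO array, which had neither the highest nor the lowest value for most members, had the highest median of that list. Within the DKO array, Fcgr4, a monocyte Fc receptor, stood at 9.97, against 5.90 in WT. That was the largest rise among the 13 markers, of which 9 were above WT in DKO and 4 below it. F13a1, for example, read 6.67 in DKO, against 7.88 in WT. The part of these cell type markers in the replication gene values was not tested. Genes of mitosis and G2 did not share the members' order: their median was -0.10 for Fancd2KO minus Foxo3aKO, and -0.02, 0.04 and -0.03 for Fancd2KO, Foxo3aKO and DKO against WT, over 29 genes. Mki67, a general marker of cycling cells, read 9.79 in Fancd2KO, 9.89 in Foxo3aKO and 9.69 in DKO, against 9.80 in WT.

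Grouping the arrays by allele, both arrays lacking Fancd2 were above both that carry it for 9 members, against 16.3% of all genes. These were Orc1, Mcm2, Mcm5, Gins3, Prim2, Fen1, Rpa2, Rrm1 and Tk1. Both were below for Orc3 and Rrm2 alone, 2 of 41 against 15.1%. Both arrays lacking Foxo3a were below both that carry it for 13 members, against 21.2%: Orc2, Mcm3, Mcm4, Mcm6, Mcm7, Mcm10, Gins2, Rfc1, Pole, Lig1, Tyms, Ccne1 and E2f1. Both were above for Gmnn and Pola1 alone, against 13.9%. The 2 arrays on each side are different genotypes, so these counts describe order and carry no replicate error. For 10 members, all 3 knockout arrays were above WT, against 21.5% of all genes, and for 11 all were below it, against 27.6%.

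Each gene's loss can be followed in 2 backgrounds that share no array. Fancd2 loss, read as Fancd2KO minus WT and as DKO minus Foxo3aKO, was positive in both for 13 members and negative in both for 2, against 25.5% and 23.4% of all genes, and had opposite signs for 26, against 51.0%. Orc1 (0.82 and 0.33), Fen1 (0.54 and 0.69), Mcm2 (0.32 and 0.41) and Gins2 (0.21 and 0.61) were positive in both. Rfc3 (0.17 and -0.55) and Prim1 (0.33 and -0.43) had opposite signs. Foxo3a loss, read as Foxo3aKO minus WT and as DKO minus Fancd2KO, was negative in both backgrounds for 16 members and positive in both for 2, against 29.4% and 21.4%, and had opposite signs for 23, against 49.1%. Rfc1 (-0.38 and -0.54), Gins2 (-0.66 and -0.26), Lig1 (-0.40 and -0.32) and Mcm3 (-0.40 and -0.25) were negative in both. Across the 41 members, which are not independent replicates, Pearson's r between the 2 backgrounds was 0.16 for Fancd2 loss and -0.04 for Foxo3a loss, and across all genes above the floor it was -0.06 for each.

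**Figure D5:**
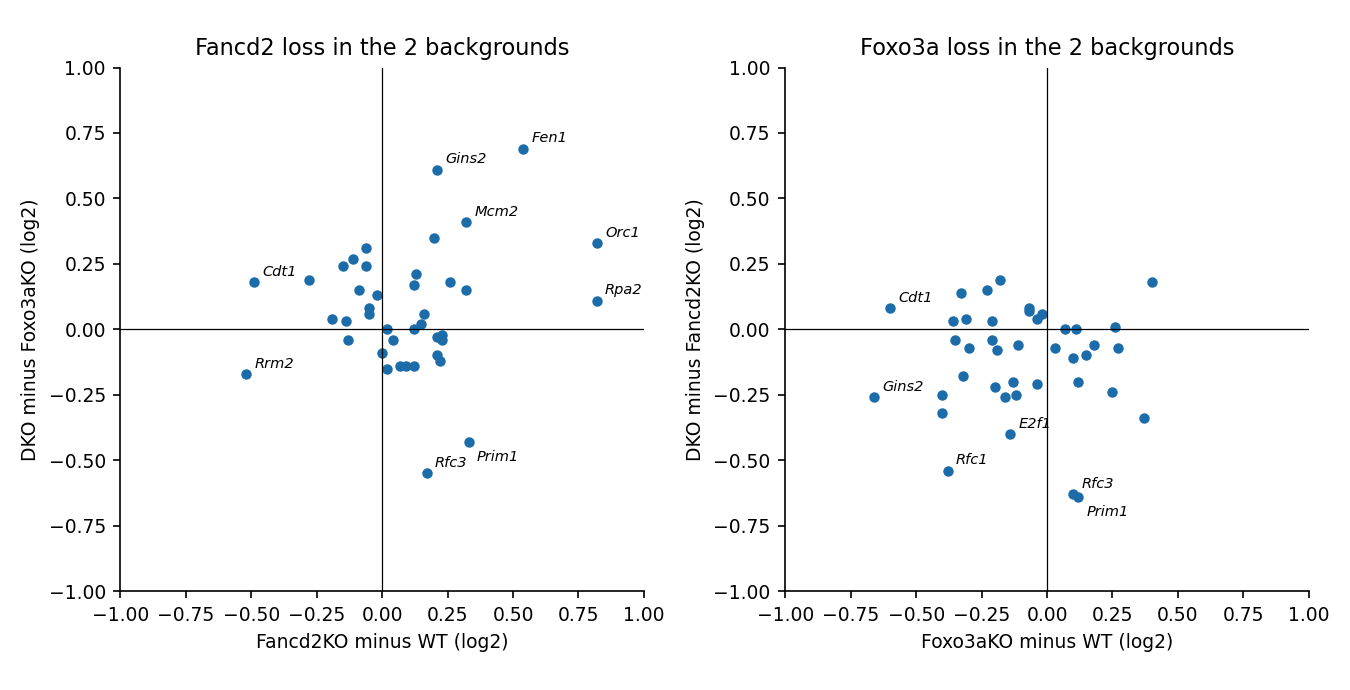
Each point is 1 of the 41 members; the left panel sets Fancd2KO minus WT (x axis, log2) against DKO minus Foxo3aKO (y axis, log2), and the right panel sets Foxo3aKO minus WT against DKO minus Fancd2KO. On the left 13 points lie at the upper right and 2 at the lower left, and on the right 16 lie at the lower left and 2 at the upper right, with Rfc3 and Prim1 at the lower right of both.

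The DKO array was also set against the sum of the single knockout differences, Fancd2KO plus Foxo3aKO minus WT. Of the 41 members, 20 were above that sum and 21 below it, against 52.8% and 47.2% of all genes. Only Cdt1, at 0.68, was at least 1.5-fold above it, 1 of 41 against 13.5%, and Prim1 (-0.77), Rfc3 (-0.73) and Rpa2 (-0.71) were at least 1.5-fold below it, 3 of 41 against 11.3%. For Cdt1 the 3 knockout arrays were all close to each other below WT, and for Rpa2 all were above it. The SD of the disagreement between 2 probe sets was 0.71 log2 for this quantity, which combines 4 arrays.

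The members were also split by whether their promoter holds an E2F word. For Fancd2KO minus WT both the 13 with a word and the 21 measured members without had medians of 0.12. For Foxo3aKO minus WT the medians were -0.11 with a word and -0.18 without, and for DKO minus WT -0.09 and 0.01. For DKO minus Fancd2KO both medians were -0.07, for DKO minus Foxo3aKO they were 0.15 with a word and 0.03 without, and for Fancd2KO minus Foxo3aKO 0.24 and 0.12. In the direct comparison of the single knockouts, 10 of the 13 with a word and 18 of the 21 without were higher in Fancd2KO. Among other genes above the floor, the 422 with an E2F word had medians of 0.02, -0.10 and -0.07 against WT in Fancd2KO, Foxo3aKO and DKO cells, and the 9048 without had -0.02, -0.05 and -0.03. For Fancd2KO minus Foxo3aKO these other genes had medians of 0.11 with a word and 0.05 without. The split was chosen after the differences were known.

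Further replication genes, not among the members, were centred near WT. Of 40 listed, 37 were above the floor, with medians of 0.03 in Fancd2KO, -0.02 in Foxo3aKO and 0.02 in DKO against WT. At 1.5-fold, 1 of the 37 was higher and 0 lower in Fancd2KO, against 5.51% and 6.29% of all genes above the floor. In Foxo3aKO 1 was higher and 4 lower, against 5.85% and 7.62%, and in DKO 0 were higher and 1 lower, against 5.05% and 6.3%. Uhrf1, which brings the maintenance DNA methyltransferase to newly replicated DNA, read 8.54 in Fancd2KO, 7.83 in Foxo3aKO and 8.12 in DKO, against 8.62 in WT. Foxo3aKO was also the low array for Pole3, a small subunit of polymerase epsilon, at 8.55, 8.02 and 8.43, against 8.71 in WT, and for Chaf1b, a subunit of the chromatin assembly factor that follows the fork, at 7.44, 6.98 and 7.32, against 7.61 in WT. Pold4, a small subunit of polymerase delta, was lower in every knockout, at 8.13, 7.92 and 7.90, against 8.59 in WT. Donson, a factor that helps to assemble and protect the replisome, was higher in all of them, at 6.98, 6.87 and 6.44, against 6.22 in WT.

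Among 23 further G1/S regulators the medians against WT were -0.01 in Fancd2KO, -0.12 in Foxo3aKO and -0.02 in DKO. E2f7, a repressing E2F factor, read 7.61 in Fancd2KO, 6.86 in Foxo3aKO and 6.79 in DKO cells, against 6.58 in WT cells. E2f8, its close relative, did not share that order, at 7.94, 7.97 and 7.65, against 8.24 in WT. Mycn, a growth-promoting transcription factor, read 5.62, 5.34 and 6.51, against 6.10 in WT. At 1.5-fold, 1 of the 23 was higher in Fancd2KO, 1 lower in Foxo3aKO and 1 lower in DKO cells, and these were E2f7, Mycn and E2f8. The shares of all genes above the floor were 5.51% higher in Fancd2KO, 7.62% lower in Foxo3aKO and 6.3% lower in DKO. Of 7 CDK inhibitors, 6 were above the floor, and 2 of them differed more from WT than any member did. Cdkn1a, which encodes the p53 target p21 that blocks entry into S phase and binds PCNA, read 10.22 in Fancd2KO, 8.14 in Foxo3aKO and 7.48 in DKO cells, against 7.21 in WT cells. Its difference from WT was thus 3.01 log2 in Fancd2KO cells. On that array 27 of the 41 replication genes were above WT, against 48.1% of all genes above the floor. A relation between Cdkn1a and these genes was not tested. Cdkn1b, which encodes p27, another inhibitor of cyclin-dependent kinases, was lower in every knockout, at 8.83, 8.46 and 8.34, against 9.35 in WT.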

How the data were processed

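Sorted marrow cells of 4 genotypes were measured with 1 array each, and samples were grouped by the genotype in the labels. The deposited values were log2 signals that the authors made with Expression Console of Affymetrix, per the submitters' processing notes; its version, summarisation and normalisation are not given in the sources used here. Of 41345 probe sets, 23521 had 1 symbol in the platform annotation, 1814 had several and 16010 had no listed gene; 190 controls were left out. The arrays' sorted values lay within 0.089 log2 of their mean, so values were used as deposited. Differences and counts were computed in Python 3.11.15 with pandas 2.3.3, and other normalisations in R 4.3.3 with limma 3.58.1. No test was made, since each genotype had 1 array and their number limits the precision. The counting was tested on simulated data. The members and gene lists were chosen with earlier results of these data known. Members at least 1.5-fold from WT, those with the 12 largest and 4 smallest ranges and the largest range of each role were named with all 4 values, and genes of further lists if at least 1.5-fold from WT. Cd34, Kit, Mki67 and the other members' values were chosen after they were seen. Alternatives were other normalisations, floors, probe set rules and fold thresholds. Promoters came from RefSeq, build GRCm38.p6, for 35 of the 43 members.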

Additional observations from a re-analysis of the deposited data

Results flagged for a closer look

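In 4 members, the DKO value lay at least 1.5-fold from the sum of the single knockout differences, and loss of Fancd2, of Foxo3a or of either one had opposite signs in the 2 backgrounds. Prim1 was -0.77 log2 from that sum, Rfc3 -0.73, Rpa2 -0.71 and Cdt1 0.68. These differences between backgrounds were not tested, since each genotype had 1 array. They make up 4 of the 41 members, where 13.5% of all genes above the floor were at least 1.5-fold above the sum and 11.3% below it. Those shares count the departure alone, without the condition on signs. For this quantity the disagreement between 2 probe sets of a gene had an SD of 0.71 log2, and 95% of the disagreements were within 1.35.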

How the results depend on the processing

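No paired analysis was possible because each genotype had 1 array, and for the same reason no replicate could be left out. The 85 differences of the 17 members named with all values were recomputed in 7 other settings, 595 values in all. None moved by more than the SD between probe sets, which was 0.45 to 0.51 log2 and larger than many of the differences themselves. The settings that changed only the floor could not move them, since every member was above it on every array. Leaving aside differences that round to 0, 7 values changed sign, for 6 differences of Gins2, Orc3, Rfc2 and Cdc6 that were at most 0.06 log2 in size as deposited. Quantile normalisation and cyclic loess each left 1 member at least 1.5-fold lower in Foxo3aKO than in WT, 1 member with both Fancd2-null arrays below, and 9 with DKO highest. Quantile normalisation turned the members' median departure from additivity to 0.02 (as deposited -0.02), and cyclic loess turned their median DKO minus WT difference to 0.01 (as deposited -0.06), with 4 members having both Foxo3a-null arrays above. Centring each array left 0 members at least 1.5-fold higher in DKO than in WT, 4 at least 1.5-fold higher in Fancd2KO than in Foxo3aKO, 1 with both Foxo3a-null arrays above and 1 with Foxo3aKO highest. The mean of all probe sets left 1 member at least 1.5-fold higher in DKO, and 1 in Fancd2KO, than in Foxo3aKO. The causes were not tested. At 2-fold, 0 members were called in each of the 7 comparisons. At a lower threshold of 0.32 log2 in either direction, 6 were called in Fancd2KO, 11 in Foxo3aKO and 8 in DKO against WT, 5 in DKO against Fancd2KO, 7 in DKO and 10 in Fancd2KO against Foxo3aKO, and 12 for the departure from additivity. The share of all genes at this lower threshold was not counted, so these numbers do not show whether the members stand apart. Moving or dropping the floor changed no value of a member. Signals near background limit Fen1, Orc1 and E2f1.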
